A study of Homo sapiens with 12 samples.

Results

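The early genes described here are 10 transcription factor genes: FOS, FOSB, FOSL1, FOSL2, JUN, JUNB, JUND and BATF, whose proteins form AP-1 dimers, together with EGR1 and MYC. They were chosen by name, with earlier results of these data known. Every probe that the array annotation gives to one of them was taken, which made 11 probes of the 47231 on the array. MYC had 2 probes (ILMN_1680618 and ILMN_2110908), and the other 9 genes had 1 each. The 12 samples, 1 Illumina bead array each, were cultures of T47D-Y, a breast cancer subline without progesterone receptor (PR), that carried a stable pIRES-neo3 vector. KR cells expressed PR-B with the K388R mutation, which removes the lysine that carries SUMO, a small protein attached to other proteins. WT cells expressed unmutated PR-B, and PR-null cells held the empty vector. All lines were G418-selected single-cell clones, so receptor and clone cannot be told apart. All were starved of serum for 1 day and then given R5020, a synthetic progestin, or its ethanol vehicle for 6 h. The 6 groups were therefore KR with R5020, KR with vehicle, WT with R5020, WT with vehicle, PR-null with R5020 and PR-null with vehicle, with 2 arrays each from duplicate experiments.

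AP-1 is a family of dimers built from Fos, Jun and BATF proteins, joined through leucine zippers. Fos proteins need a Jun partner to bind DNA, whereas Jun proteins can also pair with each other. EGR1 is a zinc finger factor, and MYC acts as a dimer with MAX on E-boxes. Most of these genes are immediate early genes, which growth factors and serum switch on within minutes through kinases such as ERK, and whose mRNA often declines again within hours. In breast cancer cells, progestins are known to raise MYC, and ligand-bound PR is known to activate kinase signalling from the cytoplasm.

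The level of a probe is given as its log2 signal. A background limit of 6.06 was taken from the 95th percentile of 437 olfactory receptor probes, whose genes these cells are not known to express. A call, higher or lower, required a log2 difference beyond 0.6 in size (1.52-fold) and a limma adjusted p under 0.01, and each ± gives the standard error of a difference, with n = 2 arrays per group. The p-values and standard errors rest only on the spread between duplicates, whose small number limits the precision. The fit pools that spread over the 6 groups and draws it toward the spread of all probes (prior degrees of freedom 37.1, residual 6). A ± therefore does not reflect the distance between the 2 arrays of a group. Median log2 signal was 6.01 on every array, replicate arrays correlated at 0.995, and 46.4% to 46.5% of an array's probes lay above the limit. Luminal epithelial markers were above the limit on all arrays for 8 of 8 genes, as was 1 marker each of basal cells (ACTA2, 1 of 4), leukocytes (CD68, 1 of 5) and fibroblasts (COL1A1, 1 of 6), and 0 of 4 of endothelium. PGR, the gene for PR, gave 9.78 and 9.59 in KR cells with R5020, 8.86 and 8.96 in KR cells with vehicle, 7.66 and 7.51 in WT cells with R5020, 8.49 and 8.62 in WT cells with vehicle, and 5.38 to 5.46 in PR-null cells. PR mRNA was thus present or absent as the labels say, but these values do not show which PR line carries the mutation. Receptor mRNA also differed between KR and WT cells, and its part in the differences between these lines was not tested.

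The promoters of a few of these genes show how differently members of the group are built. RefSeq start sites on GRCh38.p14 were used for 8 of the 10 genes, and the 250 bases before each start were searched on both strands. The promoters of MYC and FOSL1 were not searched. The motifs were the AP-1 site (TGANTCA, in 6.57% of 35116 promoters), the cyclic AMP response element (TGACGTCA, 1.65%), the JUN-type site (TGACATCA, 2.37%), the TATA box (TATAAA, 10.7%), the CArG box of serum response factor (1.16%), the E-box (CACGTG, 6.34%), the GAS site of STAT factors (TTCNNNGAA, 6.57%), the full progesterone response element (0.327%) and its half-site (TGTTCT, 12.4%). The half-site can lie within a full element. EGR1 and JUN are shown as classic serum-inducible promoters, and JUNB and BATF because their probes were lower with R5020 in WT cells. Matches are in capitals.
EGR1: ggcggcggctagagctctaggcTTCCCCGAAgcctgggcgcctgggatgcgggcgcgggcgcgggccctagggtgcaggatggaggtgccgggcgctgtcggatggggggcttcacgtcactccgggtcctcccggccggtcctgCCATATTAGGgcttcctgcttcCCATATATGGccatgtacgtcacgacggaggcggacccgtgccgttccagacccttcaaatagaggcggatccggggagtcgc
JUN: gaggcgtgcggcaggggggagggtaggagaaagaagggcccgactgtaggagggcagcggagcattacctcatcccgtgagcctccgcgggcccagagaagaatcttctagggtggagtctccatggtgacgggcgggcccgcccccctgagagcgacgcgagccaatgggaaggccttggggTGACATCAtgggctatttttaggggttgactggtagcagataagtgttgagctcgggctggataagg
JUNB: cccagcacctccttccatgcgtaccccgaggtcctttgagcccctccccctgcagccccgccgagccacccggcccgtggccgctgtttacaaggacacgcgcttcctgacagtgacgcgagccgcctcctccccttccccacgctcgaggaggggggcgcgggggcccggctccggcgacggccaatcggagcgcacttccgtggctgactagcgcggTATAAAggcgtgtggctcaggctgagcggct
BATF: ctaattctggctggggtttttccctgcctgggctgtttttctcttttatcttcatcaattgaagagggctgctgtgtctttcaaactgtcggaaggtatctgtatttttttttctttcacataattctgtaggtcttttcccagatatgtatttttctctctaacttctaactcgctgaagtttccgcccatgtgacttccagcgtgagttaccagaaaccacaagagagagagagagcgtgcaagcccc
The EGR1 stretch (chr5:138465229-138465478, plus strand) held 2 CArG boxes, at -105 to -96 and -83 to -74 from the start site, and a GAS match at -228 to -220. The JUN stretch (chr1:58784048-58784297, minus strand) held the JUN-type site at -67 to -60. The JUNB stretch (chr19:12791236-12791485, plus strand) held a TATA box at -31 to -26. The BATF stretch (chr14:75522219-75522468, plus strand) held no match, and 43.2% of its bases were G or C, against 62% to 74.8% in the other 7 and a median of 58% over all promoters. FOS and FOSB had a TATA box each, FOSB a half-site (AGAACA, the minus-strand reading, at -142 to -137), JUND a cyclic AMP element at -200 to -193, and FOSL2 no match. No full progesterone response element or AP-1 site was found in any of the 8 windows, which says only that these letters are not there.

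R5020 raised MYC in both lines that express PR, lowered BATF and JUNB in WT cells, and changed none of the early genes in PR-null cells by the call rule. Of the 11 probes, 1 was called higher and 0 lower in KR cells, where 2.44% of all probes were called, 1.66% higher and 0.786% lower. In WT cells 1 was called higher and 2 lower, against 3.18% of all probes, 2% higher and 1.18% lower. Among probes above the limit on at least 2 arrays, as all 11 were, 4.32% were called in KR and 5.62% in WT cells. In PR-null cells 0 of 11 were called, as were 0% of all probes, by limma, and 1 of the 11 had an unadjusted p under 0.05 (JUND). The median difference of the 11 probes was 0.04 in KR cells and -0.09 in WT cells, beside -0.01 over all probes in both, so the early genes did not move as a block.

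**Figure D1:**
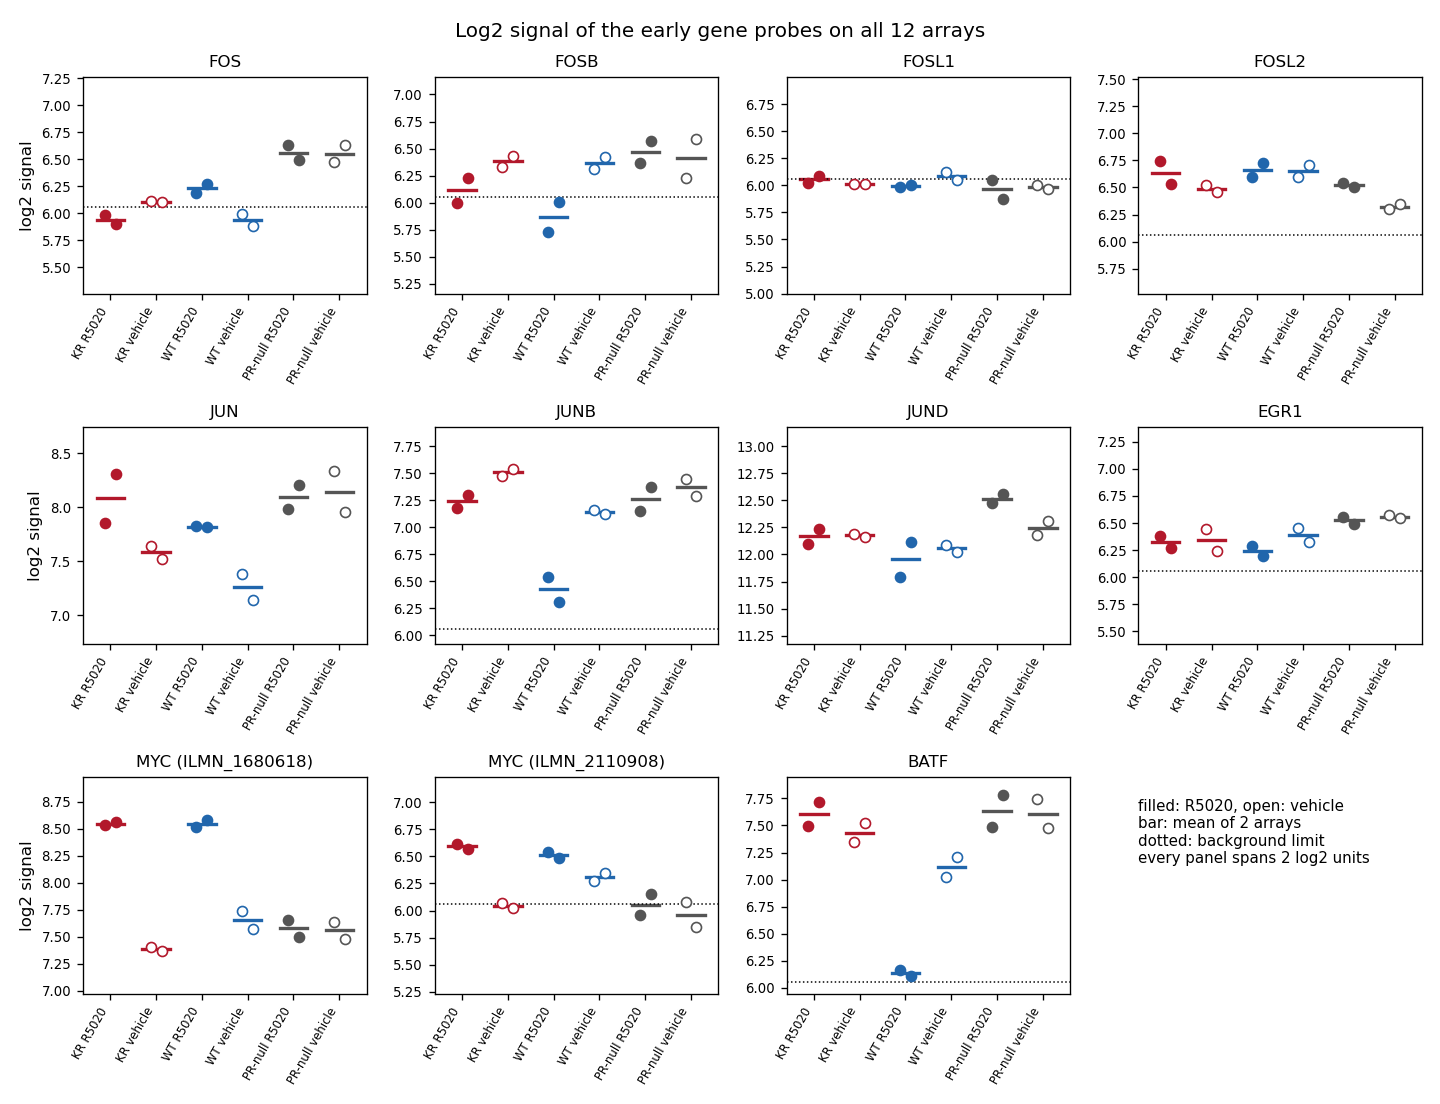
Log2 signal of the 11 probes on each of the 12 arrays, one panel per probe. Filled points are R5020 arrays, open points vehicle arrays, bars the means of 2 arrays, and the dotted line the background limit of 6.06. Each panel spans the same 2 log2 units around its own centre. MYC (ILMN_1680618) stands at 8.51 to 8.58 in the 4 R5020 arrays with PR and at 7.37 to 7.74 on all others, and BATF is lowest in WT cells with R5020.

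MYC, whose protein drives growth and ribosome production, had the largest rise among the early genes. Its brighter probe (ILMN_1680618) gave 8.53 and 8.56 in KR cells with R5020, against 7.40 and 7.37 in KR cells with vehicle. WT cells gave 8.51 and 8.58 with R5020, against 7.74 and 7.57 with vehicle. PR-null cells gave 7.66 and 7.50 with R5020, against 7.63 and 7.48 with vehicle. The 4 R5020 arrays of the PR lines stood together and above the 8 others, among which WT with vehicle and both PR-null groups overlapped and the 2 KR vehicle arrays were the lowest. The difference was 1.16 ± 0.111 in KR cells (2.23-fold, adjusted p = 3.85e-11) and 0.89 ± 0.111 in WT cells (1.85-fold, adjusted p = 3.00e-08), and in PR-null cells it was 0.02 with a 95% interval of -0.20 to 0.24. KR minus WT, the R5020 effects differed by 0.26 (interval -0.05 to 0.58, adjusted p = 0.672). With vehicle, KR minus WT was -0.26 on this probe (interval -0.49 to -0.04, adjusted p = 0.303) and -0.27 on the other MYC probe (interval -0.49 to -0.04, adjusted p = 0.295). With R5020 present, KR and WT cells differed by 0.00 (interval -0.22 to 0.22), and each stood 0.97 ± 0.111 above PR-null cells (adjusted p = 3.34e-09 for KR and 2.79e-09 for WT).

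The other MYC probe (ILMN_2110908) was much dimmer and passed the limit on 9 of 12 arrays. It gave 6.62 and 6.57 in KR cells with R5020, against 6.07 and 6.02 with vehicle. In WT cells it gave 6.54 and 6.48 with R5020, against 6.28 and 6.35 with vehicle. PR-null cells gave 5.96 and 6.15 with R5020, against 6.08 and 5.85 with vehicle. R5020 arrays were thus the higher in both PR lines, without overlap, but by less than on the brighter probe. The differences were 0.55 ± 0.112 in KR cells (adjusted p = 4.52e-04) and 0.20 ± 0.112 in WT cells (adjusted p = 0.353), and neither was called, so the 2 probes disagree on the call. On this probe the R5020 effects differed by 0.35, KR minus WT (adjusted p = 0.482). In these bulk RNA samples a change in every cell cannot be told apart from a larger change in some of them.

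The genes whose 6 group means lay closest to those of MYC, after centring, were SPSB1, an adaptor of a ubiquitin ligase (root-mean-square distance 0.0529 log2 units among 13323 genes), GNA12, a G protein subunit (0.0732), and NOTCH2NLA (0.0757), a gene with near-identical copies that its probe may also read. SPSB1 had R5020 effects of 1.02 in KR cells and 0.92 in WT cells.

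BATF, a small zipper protein that pairs with Jun proteins and is best known from lymphocytes, was the member on which the PR lines differed most. It gave 7.49 and 7.72 in KR cells with R5020, against 7.34 and 7.52 with vehicle. WT cells gave 6.16 and 6.11 with R5020, against 7.03 and 7.21 with vehicle. PR-null cells gave 7.49 and 7.79 with R5020, against 7.74 and 7.47 with vehicle. Both WT R5020 arrays lay below all 10 others and close above the limit, where a log2 difference can understate a change. The difference was -0.98 ± 0.121 in WT cells (1.98-fold lower, adjusted p = 2.21e-08) and 0.17 ± 0.121 in KR cells (adjusted p = 0.574), where the arrays overlapped. The R5020 effects differed by 1.16 ± 0.171, KR minus WT (interval 0.81 to 1.50, adjusted p = 2.02e-05). BATF was the 1 of 11 probes called in that comparison, in which 0.576% of all probes were called. Among probes above the limit on at least 2 arrays, 1.02% were called.

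With R5020, BATF was 1.47 ± 0.121 higher in KR than in WT cells (2.77-fold, adjusted p = 2.10e-12) and 1.50 ± 0.121 lower in WT than in PR-null cells (adjusted p = 1.17e-13). KR and PR-null cells differed by -0.03 (interval -0.27 to 0.21). With vehicle, WT cells were already somewhat lower than PR-null cells, by a difference of -0.49 ± 0.121 (adjusted p = 0.00524), which is under the size minimum but was called, at -0.63, without PR-null vehicle replicate 2. The closest genes by group means were MB21D2 (distance 0.0778), RAB27B, a GTPase of secretory vesicles (0.124), and KLF6, a zinc finger early gene (0.180). RAB27B had effects of 0.12 in KR cells and -1.13 in WT cells.

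**Figure D2:**
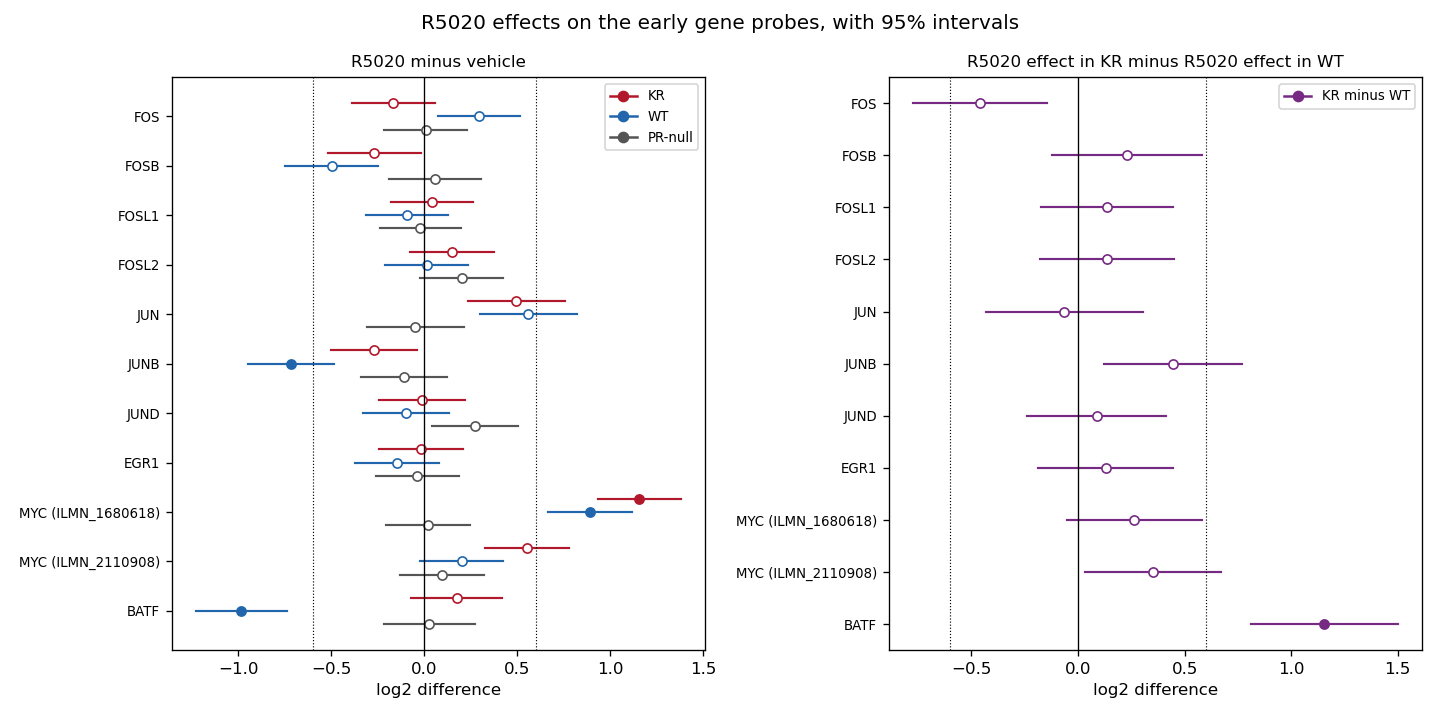
Log2 differences of the 11 probes with 95% intervals: R5020 minus vehicle in KR, WT and PR-null cells on the left, and the R5020 effect in KR cells minus that in WT cells on the right. Filled points were called, open points were not, and dotted lines mark 0.6 in each direction. MYC (ILMN_1680618) is called in KR and WT cells, BATF and JUNB in WT cells, and BATF in the difference between the lines at 1.16.

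JUNB, a Jun protein that is often a weaker activator than JUN and restrains it in some settings, was lower with R5020 in WT cells. It gave 7.18 and 7.30 in KR cells with R5020, against 7.48 and 7.54 with vehicle. WT cells gave 6.54 and 6.31 with R5020, against 7.16 and 7.12 with vehicle. PR-null cells gave 7.15 and 7.37 with R5020, against 7.45 and 7.29 with vehicle. R5020 arrays lay below vehicle arrays in both PR lines, and the WT R5020 arrays were the lowest of all 12. The difference was -0.72 ± 0.114 in WT cells (1.64-fold lower, adjusted p = 6.38e-06) and -0.27 ± 0.114 in KR cells (adjusted p = 0.201). Without WT R5020 replicate 2 the WT difference was -0.60 (adjusted p = 0.00249), just short of the size minimum. The effects differed by 0.45 ± 0.161, KR minus WT (interval 0.12 to 0.77, adjusted p = 0.280), which did not pass. With R5020 the level was 0.81 ± 0.114 higher in KR than in WT cells (adjusted p = 1.38e-06) and 0.83 ± 0.114 lower in WT than in PR-null cells (adjusted p = 1.85e-07). With vehicle, KR minus WT was 0.37 (adjusted p = 0.0934). The closest genes by group means were CPEB3, an RNA-binding protein (distance 0.0941), ODAM (0.0982) and GRAMD2B (0.104).

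JUN, the main transactivating partner of AP-1, had higher values with R5020 in both PR lines, by less than the size minimum. It gave 7.86 and 8.31 in KR cells with R5020, against 7.65 and 7.53 with vehicle. WT cells gave 7.82 and 7.82 with R5020, against 7.38 and 7.15 with vehicle. PR-null cells gave 7.99 and 8.21 with R5020, against 8.33 and 7.95 with vehicle. The R5020 arrays lay above the vehicle arrays in KR and in WT cells, and overlapped them in PR-null cells. The differences were 0.50 ± 0.129 in KR cells (adjusted p = 0.00968) and 0.56 ± 0.129 in WT cells (adjusted p = 0.00194). Single arrays decided their side of the minimum: the KR difference was 0.27 without KR R5020 replicate 2 and 0.72 without KR R5020 replicate 1, and the WT difference was 0.68 without WT vehicle replicate 1. In PR-null cells it was -0.05 (interval -0.31 to 0.21), and KR minus WT the effects differed by -0.06 (interval -0.43 to 0.31).

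With vehicle, JUN was lower in the PR lines than in PR-null cells. The difference was -0.56 ± 0.129 for KR cells (adjusted p = 0.00356, not called, although -0.75 and called without PR-null vehicle replicate 2) and -0.88 ± 0.129 for WT cells (1.84-fold lower, adjusted p = 2.35e-06). With R5020 the KR and PR-null lines differed by -0.02 (interval -0.28 to 0.25) and WT and PR-null cells by -0.28 (adjusted p = 0.197). In the order of JUN group means, PR-null with vehicle, PR-null with R5020 and KR with R5020 overlapped one another, and WT with vehicle was lowest.

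JUND, the Jun protein most cells make without stimulation, gave 12.10 and 12.24 in KR cells with R5020 and 12.19 and 12.16 with vehicle. WT cells gave 11.79 and 12.12 with R5020, against 12.09 and 12.02 with vehicle. PR-null cells gave 12.48 and 12.56 with R5020, against 12.18 and 12.31 with vehicle. The PR-null R5020 arrays were the highest of the 12. No R5020 effect on JUND was called, and the largest was 0.27 in PR-null cells (unadjusted p = 0.0215, adjusted p = 0.975). With R5020, WT minus PR-null was -0.56 ± 0.114 (adjusted p = 2.58e-04), under the size minimum, and was called without PR-null R5020 replicate 1 (-0.60) or WT R5020 replicate 2 (-0.72).

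The Fos genes were dim at this time. FOS gave 5.98 and 5.90 in KR cells with R5020, against 6.12 and 6.10 with vehicle. WT cells gave 6.19 and 6.27 with R5020, against 5.99 and 5.88 with vehicle. PR-null cells gave 6.63 and 6.49 with R5020, against 6.47 and 6.63 with vehicle. All 4 PR-null arrays were above all 8 arrays of the PR lines, 4 of which were not above the limit. No R5020 effect on FOS was called (-0.17 in KR, 0.29 in WT and 0.01 in PR-null cells), and KR minus WT the effects differed by -0.46 (interval -0.77 to -0.15, adjusted p = 0.211). With vehicle, FOS was at least 1.41-fold lower in WT than in PR-null cells (log2 difference -0.61 ± 0.110, adjusted p = 9.16e-05), a call lost without PR-null vehicle replicate 2 (-0.53) or WT vehicle replicate 2 (-0.56). It was -0.44 ± 0.110 for KR minus PR-null (adjusted p = 0.00746), under the minimum. With R5020, FOS was at least 1.42-fold lower in KR than in PR-null cells (-0.62 ± 0.110, adjusted p = 3.92e-05), a call lost without PR-null R5020 replicate 1 (-0.55) or KR R5020 replicate 2 (-0.58). These folds are bounds because neither array of the lower group was above the limit.

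FOSB gave 5.99 and 6.23 in KR cells with R5020, against 6.33 and 6.44 with vehicle. In WT cells it gave 5.73 and 6.01 with R5020, neither above the limit, against 6.31 and 6.42 with vehicle. PR-null cells gave 6.37 and 6.57 with R5020, against 6.23 and 6.59 with vehicle. R5020 arrays were the lower ones in both PR lines. The WT difference of -0.50 ± 0.123 (at least 1.24-fold lower, adjusted p = 0.00403) was under the minimum and was called, at -0.64, without WT R5020 replicate 2, and the KR difference was -0.27 (adjusted p = 0.268). With R5020, FOSB was at least 1.33-fold lower in WT than in PR-null cells (-0.60 ± 0.123, adjusted p = 2.79e-04), a call lost without PR-null R5020 replicate 2 (-0.50) or WT R5020 replicate 1 (-0.46).

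FOSL1 lay at 5.88 to 6.12 and passed the limit on 2 of 12 arrays and in 0 of 6 groups, so a change of this gene was not measurable here. FOSL2, a Fos protein expressed with little stimulation, lay at 6.30 to 6.74, above the limit on all arrays, and was not called in any of the 12 comparisons. EGR1 also lay above the limit on all arrays, at 6.20 to 6.57, and was called in none of the 12. Its R5020 effects were -0.02 in KR cells (interval -0.24 to 0.21), -0.15 in WT cells (-0.37 to 0.08) and -0.04 in PR-null cells (-0.26 to 0.19), and none of these intervals reaches the 0.6 needed for a call. Both FOSL2 and EGR1 lay close above the limit, where a log2 difference can understate a change.

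Between the lines with the same treatment, 0 of 11 probes were called for KR against WT cells with vehicle (0.502% of all probes), where limma gave 5 of 11 an unadjusted p under 0.05. For KR against PR-null cells with vehicle the count was 0 (1.59%), with 2 of 11 at an unadjusted p under 0.05, and for WT against PR-null cells it was 2, both lower (1.94%). With R5020 it was 2 higher for KR against WT cells (1.46%), 1 higher and 1 lower for KR against PR-null cells (3.79%), and 1 higher and 3 lower for WT against PR-null cells (4.75%). Among probes above the limit on at least 2 arrays, as all 11 were, the shares were higher. In the same order they were 0.888%, 2.82% and 3.43% with vehicle, and 2.58%, 6.69% and 8.39% with R5020. For WT against PR-null cells with vehicle, limma gave 5 of 11 probes an unadjusted p under 0.05. With R5020 that count was 3 for KR against WT, 5 for KR against PR-null and 9 for WT against PR-null cells. The share of all probes with an unadjusted p under 0.05 was not counted. These counts therefore do not show whether the early genes stood out. For WT against PR-null cells with R5020, the median difference of the 11 probes was -0.28, beside -0.003 over all probes, and 4 of the 11 were positive. These comparisons share arrays with one another. The R5020 effects were also set against those of PR-null cells, a comparison chosen after the data were seen. MYC (ILMN_1680618) differed by 1.14 ± 0.157 for KR minus PR-null (adjusted p = 9.00e-07). It was the only 1 of 11 probes called, beside 2.24% of all probes and 3.93% of those above the limit on at least 2 arrays. For WT minus PR-null, MYC differed by 0.87 ± 0.157 (adjusted p = 1.11e-04) and BATF by -1.01 ± 0.171 (adjusted p = 3.91e-05), beside 3.15% of all probes (5.54% of those above the limit on at least 2 arrays). JUN (0.61) and JUNB (-0.61) did not reach the adjusted p threshold there (adjusted p = 0.0412 and 0.0145), but JUN was called without PR-null vehicle replicate 2 (0.80) and JUNB without WT R5020 replicate 1 (-0.73).

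**Figure D3:**
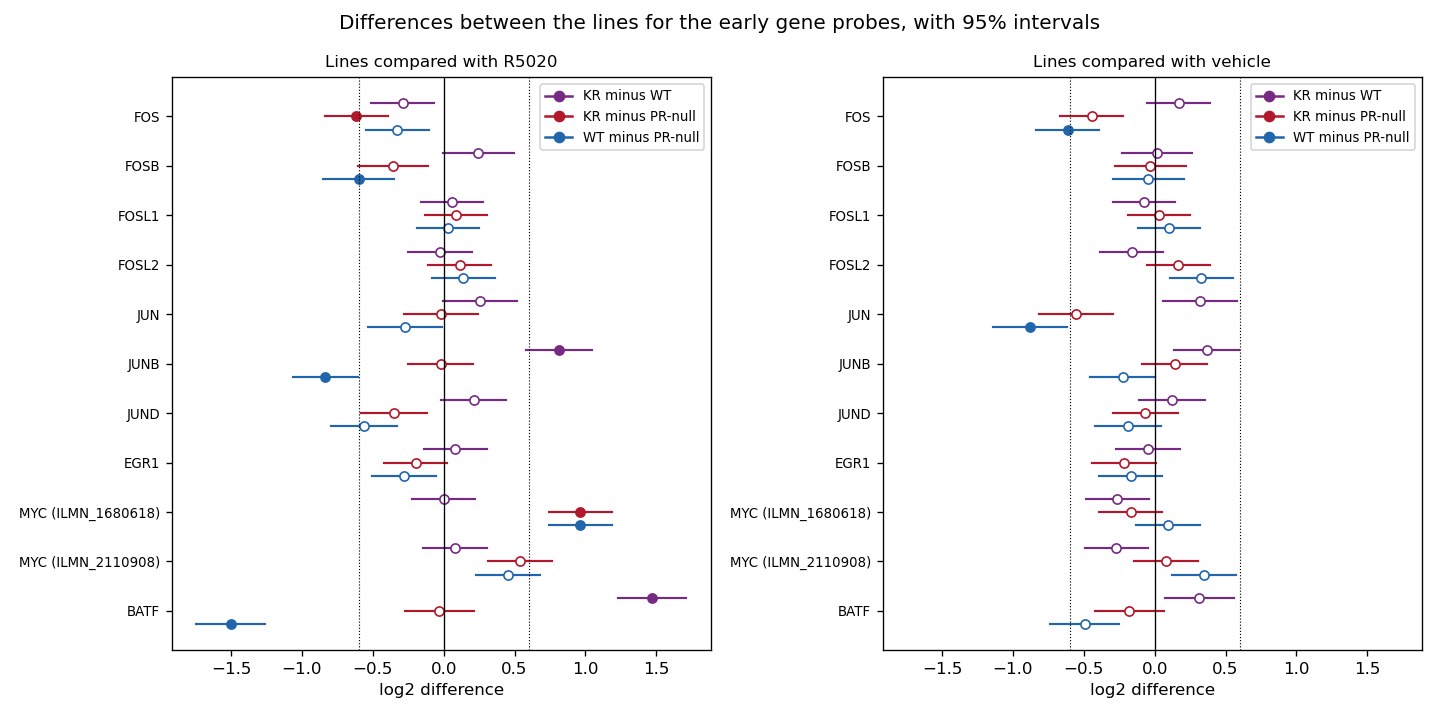
Log2 differences between the lines for the 11 probes, with 95% intervals: arrays with R5020 on the left and with vehicle on the right. Filled points were called, open points were not, and dotted lines mark 0.6 in each direction. With R5020, BATF and JUNB separate WT cells from both other lines and MYC (ILMN_1680618) separates both PR lines from PR-null cells, and with vehicle JUN and FOS are called lower in WT than in PR-null cells.

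Genes related to the early genes were read in 8 lists, each gene from its brightest probe. The lists too were chosen with earlier results of these data known. The calls in KR and WT cells were counted beside the background of 2.44% and 3.18% of all probes. Among probes above the limit on at least 2 arrays, as most listed genes were, the shares were 4.32% and 5.62%. In PR-null cells 0 genes of any list were called. Of 13 other AP-1 family genes and partners, 0 were called in KR cells and 2 in WT cells. ATF3, a stress-induced zipper factor, rose by 1.08 ± 0.110 in WT cells (adjusted p = 2.25e-10), but its 2 other probes gave -0.11 and 0.05. JDP2, which represses AP-1 and whose gene lies between FOS and BATF on chromosome 14, fell by 0.61 (adjusted p = 8.49e-05), a call lost without WT vehicle replicate 2 (-0.59) or WT R5020 replicate 2 (-0.58). The JDP2 difference in KR cells was -0.54 (adjusted p = 6.65e-04), under the size minimum, and the effects differed by 0.07 (adjusted p = 0.958). For ATF3 the effects differed by -0.85 ± 0.156, KR minus WT (adjusted p = 7.05e-04), a call lost without WT vehicle replicate 1 (-0.76), KR vehicle replicate 1 (-0.81) or KR R5020 replicate 2 (-0.80). The median of this list was 0.03 in KR and -0.03 in WT cells, beside -0.02 and -0.01 over all genes.

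Of 5 genes of the EGR family and the NAB corepressors that restrain it, 0 were called in either line (medians -0.07 and 0.00). In WT cells NAB2 gave -0.56 (adjusted p = 3.12e-04), under the size minimum, and the others lay between -0.05 and 0.12. NAB2 gave -0.20 in KR cells (adjusted p = 0.424) and was named after its values were seen. With R5020, NAB2 and WT1 were called lower in WT than in PR-null cells. Of 12 genes of the MYC/MAX network, 0 were called in KR cells, and in WT cells MYCN rose by 0.76 on its brightest probe (0.19 on the other) and MXD3, a MAX partner that opposes MYC, fell by 0.68 (adjusted p = 8.12e-07 and 2.14e-05). In KR cells MYCN gave 0.20 and MXD3 -0.11, and neither difference between the lines passed (adjusted p = 0.0637 and 0.0848). Of 15 kinases and factors that drive early gene transcription, ELK1, the ETS factor that binds beside serum response factor, rose by 1.10 ± 0.112 in KR cells (adjusted p = 1.99e-10). In WT cells the ELK1 difference was 0.54 ± 0.112 (adjusted p = 4.70e-04), under the size minimum, and the effects differed by 0.56, KR minus WT (adjusted p = 0.0722). RPS6KA5, a kinase that phosphorylates histone H3 at early genes, rose by 1.36 in KR cells and by 1.05 in WT cells (adjusted p = 1.17e-13 and 2.13e-10), with 0.12 and 0.21 on its other probe. The median of these 15 was 0.17 in KR and 0.07 in WT cells.

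Of 25 other immediate early genes, 3 rose and 1 fell in KR cells, and 3 rose and 2 fell in WT cells. TIPARP, an enzyme that adds ADP-ribose to proteins, rose by 2.16 ± 0.120 in KR and 2.02 ± 0.120 in WT cells, and CSRNP1, a nuclear factor, rose by 1.45 and 1.67 (adjusted p of 1.39e-13 or less for all 4). PLK2, a polo-like kinase, fell by 1.43 in KR cells (adjusted p = 6.86e-13) and was at least 1.92-fold lower in WT cells. RHOB, a small GTPase, rose by 0.82 ± 0.112 in KR cells and gave -0.24 in WT cells (adjusted p = 0.221), and its effects differed by 1.07 ± 0.158, KR minus WT (adjusted p = 2.30e-05). In WT cells GADD45A rose by 0.73, a call lost without WT vehicle replicate 1 (0.58), and KLF6 fell by 0.72. GADD45A gave 0.28 in KR cells and, without overlap of its arrays, 0.36 in PR-null cells (unadjusted p = 0.00248, adjusted p = 0.907), and it was not called in the WT minus PR-null difference of effects. KLF6 gave -0.21 in KR cells, and its effects differed by 0.52, KR minus WT (adjusted p = 0.133). The remaining members of the list were not called, and the medians were 0.11 and 0.03. With vehicle the same list held 2 higher and 4 lower genes in KR than in PR-null cells. Of all probes 1.59% were called there, and 2.82% of those above the limit on at least 2 arrays. In WT against PR-null cells the list held 1 higher and 6 lower genes (1.94% and 3.43%). CCN1 (-1.53 for KR and -1.82 for WT), IER5 (-0.84 and -0.94) and DUSP1, a phosphatase that acts on MAP kinases (-0.66 and -0.68), were among those lower, and were named after their values were seen.

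Of 19 textbook AP-1 targets, 4 rose and 1 fell in KR cells, and 3 rose and 1 fell in WT cells. CCND1, which encodes cyclin D1, rose by 1.53 ± 0.115 in KR and 1.82 ± 0.115 in WT cells (adjusted p = 2.55e-14 and 7.55e-17). PLAUR, the urokinase receptor, rose by 1.47 and 1.39 on its brightest probe with 0.34 to 1.05 on its 2 other probes across both lines. VEGFA, the angiogenic factor, rose by 0.87 and 0.92, with -0.07 to 0.60 on its 2 other probes. PLAU, the urokinase, moved against its receptor and fell by 0.92 in KR and by 1.51 in WT cells (adjusted p = 1.80e-08 and 8.99e-15). HBEGF, an EGF receptor ligand, rose by 1.96 ± 0.114 in KR cells (adjusted p = 5.35e-18) and gave 0.42 in WT cells (adjusted p = 0.0114), and its effects differed by 1.55 ± 0.161, KR minus WT (adjusted p = 9.40e-09). The list's medians were -0.05 and -0.07, near those of all genes.

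Of 23 textbook MYC-activated genes, PPRC1, a coactivator of mitochondrial biogenesis, was the 1 called in each line, rising by 0.62 in KR cells (a call lost without KR vehicle replicate 2, at 0.54, or KR R5020 replicate 2, at 0.48) and by 0.83 in WT cells. The other genes of the list lay between -0.36 (HSPE1) and 0.50 (NOP16) in KR cells, and between -0.23 (APEX1) and 0.59 (RRS1) in WT cells. Of probes that were not the brightest, one of NOP16 gave 0.63 in both lines. In WT cells one of LDHA gave 0.70 and one of HSPE1 gave -0.58. The list's median was 0.06 in KR and 0.15 in WT cells. Of 8 textbook MYC-repressed genes, NDRG1 rose in both lines, by 2.31 ± 0.108 in KR and 1.40 ± 0.108 in WT cells (adjusted p = 3.33e-21 and 5.22e-14), with a difference of 0.91 ± 0.153 (adjusted p = 2.03e-04). In WT cells CDKN1A, the inhibitor p21, rose by 0.90 (0.11 on its other probe), GADD45A rose as above, CDKN1B, the inhibitor p27, fell by 0.78, and TXNIP, which binds thioredoxin, fell by 1.21. In KR cells, by amounts under the size minimum, CDKN1A gave 0.38 (adjusted p = 0.0445), CDKN1B -0.52 (adjusted p = 0.00467) and TXNIP -0.44 (adjusted p = 0.00805), and KR minus WT the effects on CDKN1A and CDKN1B did not differ by the call rule (adjusted p = 0.172 and 0.751). The CDKN1B call was lost without WT R5020 replicate 2 (-0.53). TXNIP effects differed by 0.77 ± 0.161 (adjusted p = 0.00473), a call lost when any of 7 arrays was left out (0.58 to 0.79). Medians of these 8 were 0.19 and 0.08.

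**Figure D4:**
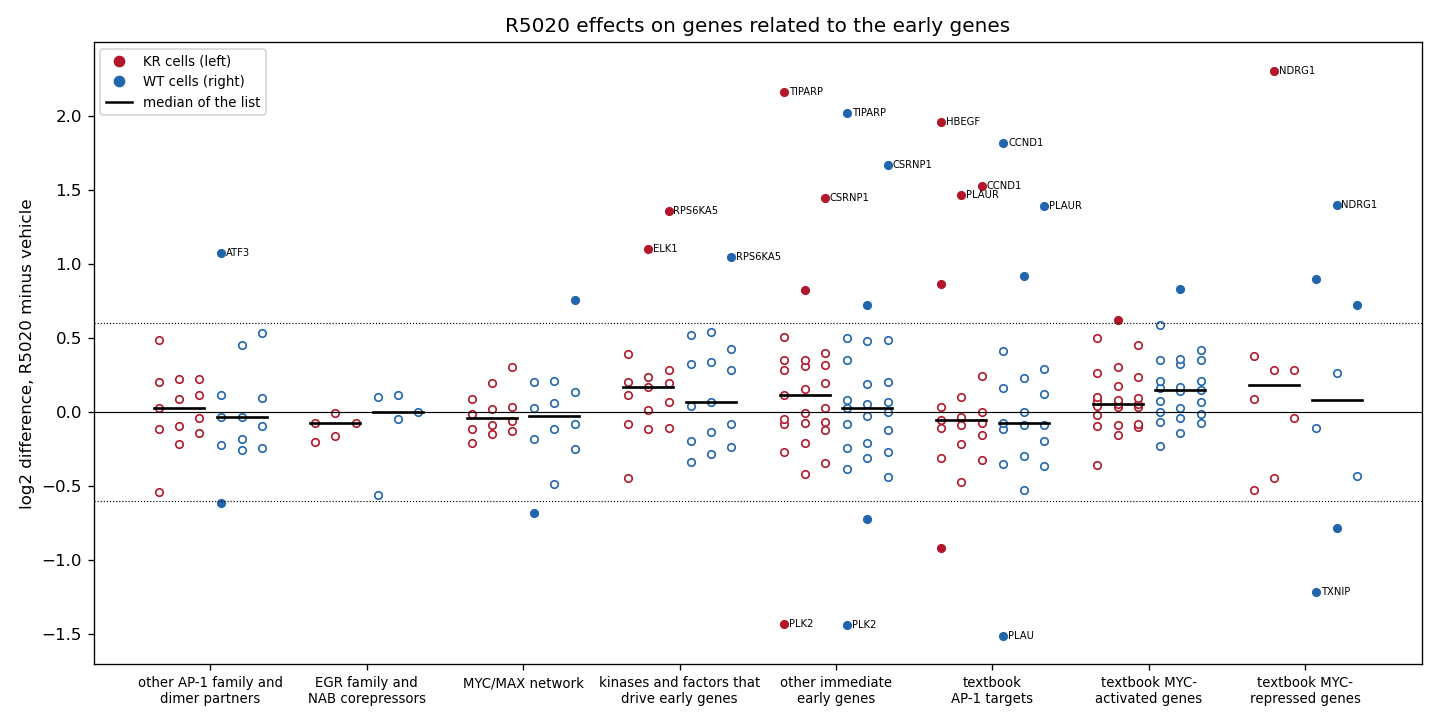
R5020 minus vehicle log2 differences of the genes in 8 related lists, each from its brightest probe, with KR cells left and WT cells right within a list. Filled points were called, black bars are list medians, dotted lines mark 0.6 in each direction, and called genes beyond 1 log2 unit are named; PLK2 in WT cells is plotted as measured although its R5020 arrays were not above the limit. List medians lie between -0.07 and 0.19, while single genes reach 2.31 (NDRG1 in KR cells).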

How the data were processed

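Total RNA of 12 cultures was measured on Illumina bead arrays, 2 in each of 6 groups of line and treatment, grouped by the labels. The authors deposited log2 intensity values, made by log2 transforming and quantile normalizing the bead signals in lumi, a package whose version is not given in the sources used here, and these were used as they are. The 12 signal columns of a non-normalized table carry codes that no label explains and were not used. Of 47231 probes, 30113 carry 1 gene symbol, 8 several and 17110 none.

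Every probe entered 1 limma fit with a mean for each group (version 3.58.1 in R 4.3.3, residual degrees of freedom 6, prior degrees of freedom 37.1), and p-values were adjusted by Benjamini-Hochberg over all probes of a contrast. The thresholds for a call (0.6 on the log2 scale, adjusted p 0.01) are those of the study. A group with neither array above the limit of 6.06 gives a fold bound, the brighter group's mean against, per array, the higher of the limit and the measured value. The method was tested on simulated data. The alternatives were a filter on dim probes (above the limit on 2 arrays, passed by all 11 member probes and by 26697 of 47231), normexp correction, a replicate block, an intensity trend, a fit of the compared groups alone, a looser threshold, and each array left out. Related genes were named if called in KR cells, in WT cells or in their difference, at most 6 a list and contrast, and for each member with a called R5020 effect the 3 genes closest by group means were named. Members and lists were chosen with earlier results of these data known. Promoter sequences are from RefSeq, GRCh38.p14.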

Additional observations from a re-analysis of the deposited data

Results flagged for a closer look

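Tests of the difference between R5020 effects marked 4 values. BATF differed between KR and WT cells by 1.16 (KR minus WT), where R5020 gave 0.17 in KR cells and -0.98 in WT cells. Leaving out each array in turn gave 1.04 to 1.27, with an adjusted p of 0.00114 at most. Set against PR-null cells, the R5020 effect on MYC (ILMN_1680618) differed by 1.14 in KR and by 0.87 in WT cells, and that on BATF by -1.01 in WT cells. The comparisons with PR-null cells were chosen after the data were seen and share their PR-null arrays. With 2 arrays a group, single arrays far from their group could not be looked for.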

How the results depend on the processing

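The log2 differences of the 11 probes in the KR effect, the WT effect and their difference were recomputed 561 times. Of these, 556 stayed on their side of the call rule, 1 lost its call (JUNB in WT cells without WT R5020 replicate 2, -0.60), 4 gained one (JUN in KR cells, 0.72, and in WT cells, 0.68, and FOSB in WT cells, -0.64, each without 1 array, and the dim MYC probe in KR cells under normexp, 0.75) and 0 reversed. The sign changed in 10 differences called in neither setting. The dim-probe filter, the replicate block, the intensity trend and the fit of the compared groups alone leave a log2 difference as it is. So does leaving out an array of a group that is not compared. Many of the 561 results could thus move only through the p-value, and the count of 556 does not measure robustness. Under normexp the KR effect had 2 member probes called. An adjusted p under 0.05 with no minimum gave 3 for the KR effect, 5 for the WT effect, 2 for KR and 4 for WT against PR-null cells with vehicle, 4 for KR and 7 for WT against PR-null cells with R5020, and 4 for the WT minus PR-null difference of effects. Leaving out 1 array gave 1 to 2 for the KR effect, 3 to 4 for the WT effect, 0 to 1 for KR and 1 to 2 for WT against PR-null cells with vehicle, 1 to 3 for KR and 3 to 5 for WT against PR-null cells with R5020, and 2 to 3 for the WT minus PR-null difference, and the other 5 counts did not move. A group left with 1 array is assumed to vary like the other groups.

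Over all probes, normexp gave 49 calls in place of 272 for the KR minus WT difference of effects, 112 in place of 237 for KR against WT cells with vehicle, and 531 in place of 1058 and 694 in place of 1487 for the differences of effects from PR-null cells in KR and WT cells. Leaving out 1 array gave 174 to 278 for the KR minus WT difference. Without the minimum, calls were 2941 in place of 1154 for the KR effect, 4243 in place of 1501 for the WT effect, 502 in place of 272 for their difference, 2276 in place of 1487 for the WT minus PR-null difference, 915 in place of 237, 2588 in place of 753 and 3274 in place of 915 for KR against WT, KR against PR-null and WT against PR-null cells with vehicle, and 2436 in place of 690, 4781 in place of 1789 and 5948 in place of 2245 for the same pairs with R5020. The cause of these shifts beyond the looser rule itself was not tested. The replicate block, with 1155 calls in place of 1154 for the KR effect, changed no call of a member. Same-numbered arrays showed no shared deviation: across 15 pairs of groups, their deviations had correlations of -0.0468 to 0.0814. The labels do not say whether same-numbered arrays came from the same experiment. FOSL1, FOS, FOSB and the dim MYC probe had arrays at or under the background limit, and EGR1 and FOSL2 lay close above it, which leaves small changes of these 6 probes poorly measured. BATF also lay close above the limit in WT cells with R5020, so its differences from that group may be understated.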
